A study of Homo sapiens with 2 samples.

Results

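The 6 genes described here encode acidic histone chaperones and their close relatives: PTMA, SET, NAP1L1, ANP32A, ANP32B and ANP32E. They were chosen by gene ID, with earlier results of these data known but by a rule that uses no measured value, and every peak listed under these IDs was taken. They held 55 of the 25920 peaks of replicate 1 and 46 of the 25243 peaks of replicate 2, under 6 of the 8801 gene IDs found in either list. The peaks come from CLIP-seq of the RNA-binding protein Musashi-2 (MSI2) in NB4 cells, a human line established from acute promyelocytic leukaemia. In CLIP-seq, ultraviolet light links a protein to the RNA it touches, an antibody recovers the protein, and the attached RNA fragments are sequenced. Both libraries belong to 1 group of cells with no treatment in the labels, and for each the ultraviolet dose was 400 mJ per cm2, given on ice to equal numbers of cells. Libraries from a control antibody, from input RNA or from cells without MSI2 were not analysed here, so a peak cannot be told apart from repeatable background, and a transcript with more RNA can give more peaks. The labels do not say that the replicates are separate cultures, and differences between them may be technical.

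Histone chaperones hold histones away from DNA and other partners while nucleosomes are built, taken apart or exchanged, and many carry long runs of acidic residues that meet the basic histones. NAP1L1 and SET belong to the nucleosome assembly protein family. The ANP32 proteins combine leucine-rich repeats with an acidic tail, and prothymosin alpha, the product of PTMA, is a small and highly acidic nuclear protein. Musashi proteins are known to bind short UAG-containing sequences, often in 3' untranslated regions, and to change the translation or stability of the RNA. SET is known in leukaemia as a fusion partner of NUP214 and as an inhibitor of the phosphatase PP2A.

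Each deposited line gives a peak's position in genome build hg19, the authors' p-value and a name that ends in a whole number. That number, called the tally here, is 3 or more in every peak. It may be a number of reads, but no header or label says so and this was not tested. Peaks that met any peak of the opposite list, on their own strand and over at least 1 nt, are called shared. A shared peak of replicate 1 is called reproducible. Where a peak met several, its partner is the one with the largest overlap. A peak begins at its lowest coordinate and ends at its highest, so on the minus strand it begins at its 3' edge. The symbols stand for these Ensembl IDs in the lists: ENSG00000187514.10 for PTMA, ENSG00000119335.12 for SET, ENSG00000187109.9 for NAP1L1, ENSG00000140350.11 for ANP32A, ENSG00000136938.8 for ANP32B and ENSG00000143401.10 for ANP32E. The chromosome of the peaks matched that of the symbol in RefSeq (GRCh38.p14) for 6 of 6 genes, and the strand matched for the 5 symbols with a strand entry. No peak of another gene ID lay within the spans of these genes in either list.

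All 6 genes had peaks in both libraries, and each had at least 1 reproducible peak. Of the 8801 gene IDs, 63.1% had peaks in both lists and 45.5% had a reproducible peak. NAP1L1 carried the most, with 9 reproducible peaks among 20 in replicate 1, and replicate 2 listed 15 peaks there. SET followed with 7 reproducible peaks among 13, and 9 peaks in replicate 2. ANP32A had 5 among 9 and 9 in replicate 2, ANP32E had 3 among 6 and 5, ANP32B had 3 among 3 and 4, and PTMA had 2 among 4 and 4. Among all gene IDs, 0.954% had as many reproducible peaks as NAP1L1 or more, 1.95% as many as SET, 5.02% as many as ANP32A, 13.7% as many as ANP32B and ANP32E, and 23.5% as many as PTMA. So by this count the genes range from NAP1L1 and SET, whose counts few other IDs reached, to PTMA, whose count many other IDs reached. These counts were not adjusted for transcript length or abundance, and peaks that touch end to end were counted separately.

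**Figure D1:**
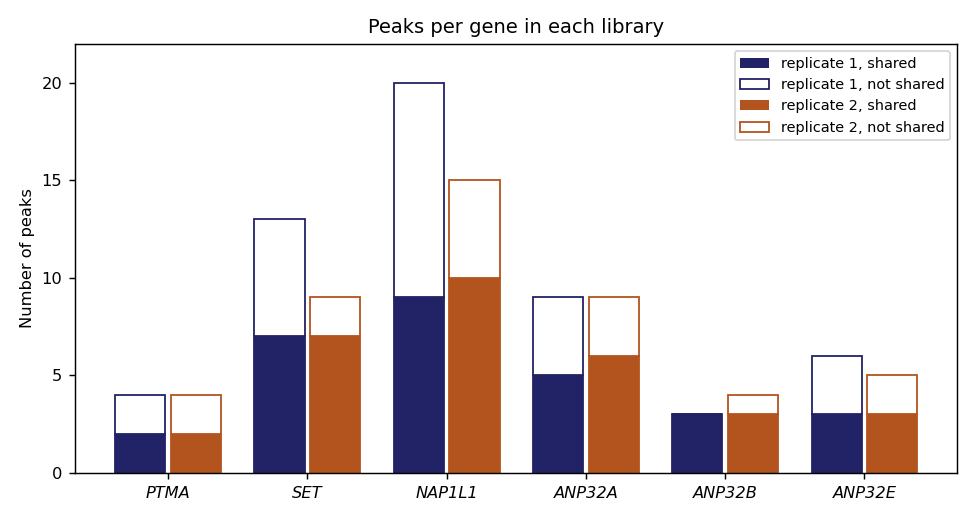
Number of peaks under each gene ID in replicate 1 (blue) and replicate 2 (orange), with shared peaks filled and peaks not overlapped by the other library open. NAP1L1 has 20 and 15 peaks, PTMA 4 and 4, and all 3 replicate 1 peaks of ANP32B are shared.

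Over the 6 genes, 29 of 55 peaks of replicate 1 were shared, or 52.7% (95% Wilson interval 39.8% to 65.3%), against 35.7% of all peaks of that list. In replicate 2, 31 of 46 were shared, or 67.4% (53.0% to 79.1%), against 37.3% of all peaks. The intervals cover counting error only, since peaks of one gene are not independent. Neighbouring peaks touched end to end in 1 case in replicate 1 and 6 in replicate 2, against 835 and 1781 over the whole lists. In the 6 genes, each such pair had identical tallies. They were counted separately and both tallies entered the sums, and whether they are a single site was not tested. With peaks within 50 nt merged, 27 of 50 and 26 of 36 were shared (54% and 72.2%), against 36.2% and 39.1% of all. Peaks with a low tally made up much of this gap. With a tally of 3 or 4, 10 of 26 peaks of replicate 1 and 18 of 32 peaks of replicate 2 were shared, against 16.4% and 21.1% of all peaks with those tallies. With a tally of 5 to 9 the counts were 9 of 17 and 10 of 11, against 47.6% and 57.4%. At 10 or above, 10 of 12 and 3 of 3 were shared, against 87.1% and 89.4%, so for strong peaks the counts were near the background. Peaks this strong made up 12 of the 55 peaks in replicate 1 and 3 of the 46 in replicate 2, against 13.2% and 9.53% of all peaks. Where peaks lie close together under a gene, overlap is easier by position alone, and the part of this in the low-tally counts was not tested.

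**Figure D2:**
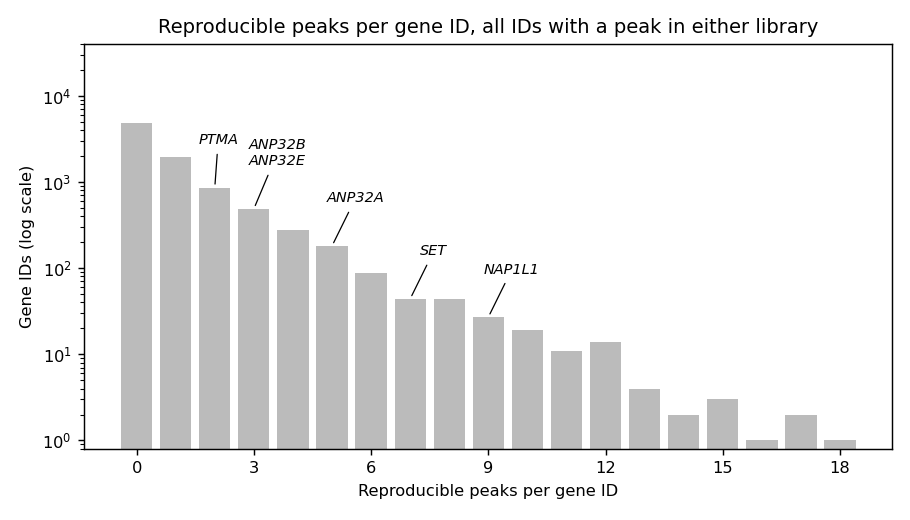
Number of gene IDs (log scale) by their number of reproducible peaks, over all 8801 IDs with a peak in either library. The labels mark the 6 genes, from PTMA at 2 to NAP1L1 at 9.

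**Figure D3:**
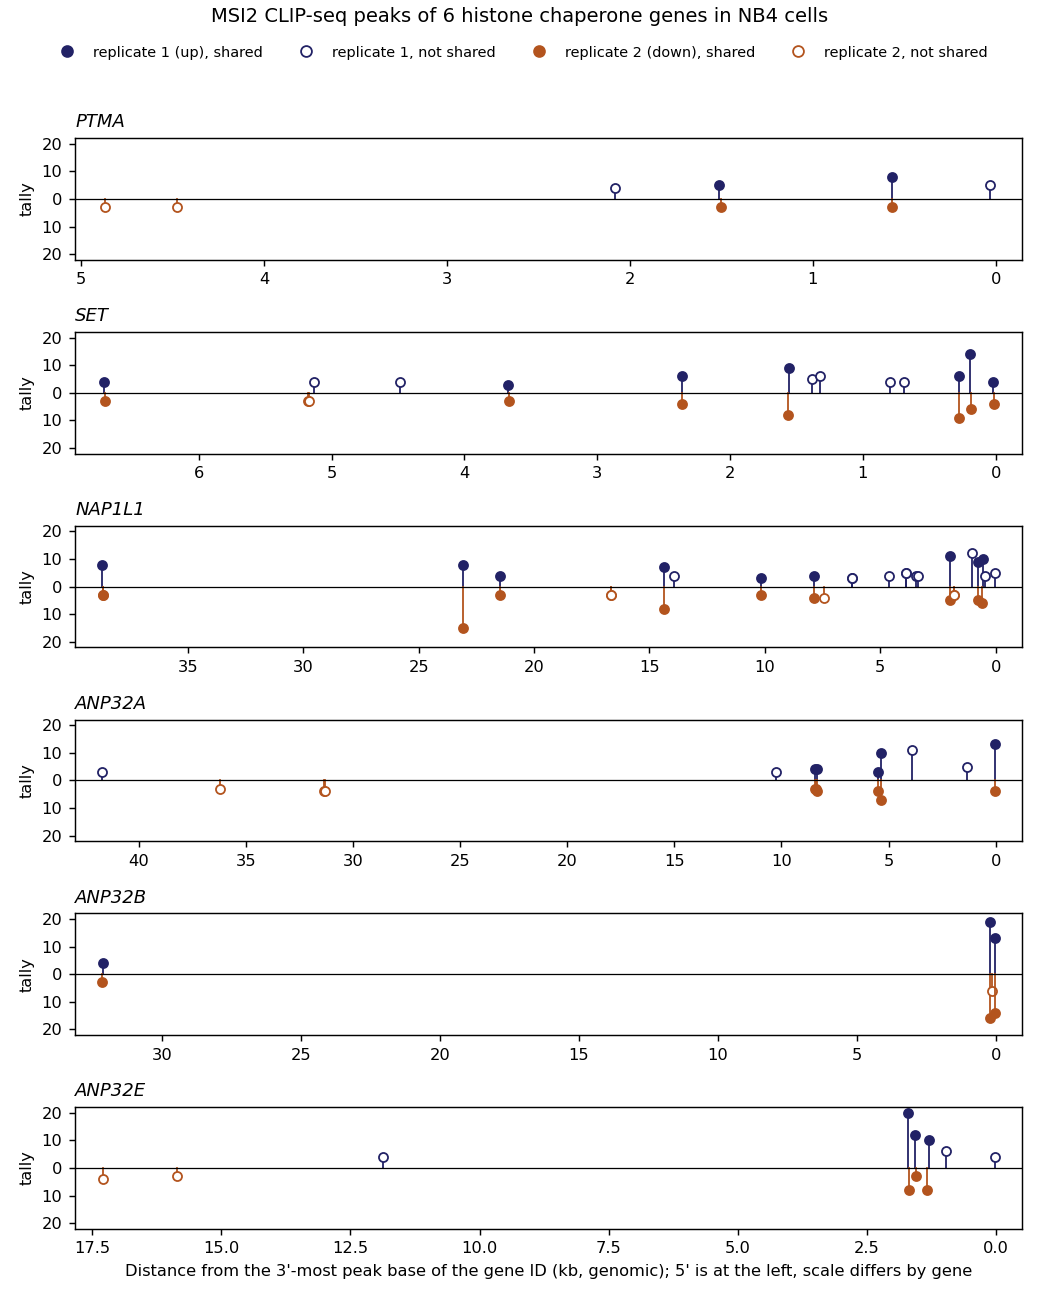
Peaks of each gene by distance in kb from the 3'-most base of any of its peaks, with the 5' side at the left and a separate horizontal scale for each gene. The height is the tally, upward for replicate 1 and downward for replicate 2, and filled points are shared. ANP32B and ANP32E show a tight group of strong peaks near the right edge, while the shared peaks of SET and NAP1L1 are more spread out, with a stretch of 15.6 kb in NAP1L1 that holds no peak.

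NAP1L1, which carries H2A and H2B and moves between cytoplasm and nucleus, had peaks from 76439671 to 76478395 of chromosome 12 on the minus strand, a span of 38.7 kb. Its tallies came to 117 in replicate 1 and 71 in replicate 2. The libraries put their strongest peak at different places. In replicate 2 it was at 76462692 to 76462775, with a tally of 15 (p of 3.97e-11). Replicate 1 had a peak at that site, at 76462703 to 76462758, with a tally of 8 (p of 1.17e-05), and the centres of the inner intervals lay 1 nt apart. This site is 23.1 kb from the 3'-most peak base, deep inside the span.

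The strongest NAP1L1 peak of replicate 1, at 76440659 to 76440712 with a tally of 12 (p of 4.73e-07), was not overlapped in replicate 2. It lay 1.02 kb from the 3'-most peak base, between shared peaks on either side. On its 3' side, peaks at 76440411 to 76440464 and 76440211 to 76440267 had tallies of 9 and 10 in replicate 1, and their partners had 5 and 6. On its 5' side, the peak at 76441611 to 76441692 had a tally of 11, and its partner had 5. Each of these shared sites near the 3' end was listed with the higher tally in replicate 1, while the site at 23.1 kb was listed with the higher tally in replicate 2.

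Further 5', NAP1L1 had 3 shared sites whose peak and partner began or ended at the identical base, 2 of them narrow and with low tallies. A peak began at 76461151 in both libraries, ending at 76461160 in replicate 1 and 76461164 in replicate 2, with tallies of 4 and 3. Another began at 76447550 in both, with a tally of 4 in each. The other pair ended at 76454060 in both and was wider, at 40 and 47 nt, with tallies of 7 and 8. At the 5' edge of the span, the replicate 1 peak at 76478347 to 76478395 had a tally of 8. Replicate 2 listed that site as a pair of touching peaks, at 76478347 (1 nt wide) and at 76478348 to 76478358, each with a tally of 3. The 1 nt peak overlaps less and is not the partner, so its identical beginning is not among the 3. No peak of either library lay in the 15.6 kb between that edge and the site at 76462775.

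SET, an inhibitor of PP2A and of histone acetylation, had peaks from 131451901 to 131458630 of chromosome 9 on the plus strand, a span of 6.73 kb. Its tallies came to 73 in replicate 1 and 43 in replicate 2. Of its 9 peaks in replicate 2, 7 were shared, and these lay from one edge of the span to the other. The strongest in replicate 1, at 131458407 to 131458472, had a tally of 14 (p of 1.47e-08), against 6 at 131458427 to 131458465 in replicate 2. The strongest in replicate 2 was its neighbour at 131458317 to 131458391, with a tally of 9 (p of 3.14e-05), against 6 at 131458342 to 131458374 in replicate 1. The libraries thus listed the same pair of adjoining sites, within 0.277 kb of the 3'-most peak base, in opposite order of tally.

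The site that follows toward the 5' side was of like strength. The peak at 131457050 to 131457105 had a tally of 9, and its partner had 8, with inner intervals centred 2 nt apart. A peak at 131456247 to 131456293 had tallies of 6 and 4. At the 5' edge, a peak at 131451901 to 131451933 had tallies of 4 and 3, and one 3.67 kb from the 3'-most peak base, which began at 131454955 in both libraries, had 3 and 3. The 6 SET peaks of replicate 1 that were not shared had tallies of 4 to 6, and 4 of them lay between the shared sites at 131457105 and 131458342, where replicate 2 listed no peak. The largest distance between inner interval centres of a shared SET pair was 9 nt.

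**Figure D4:**
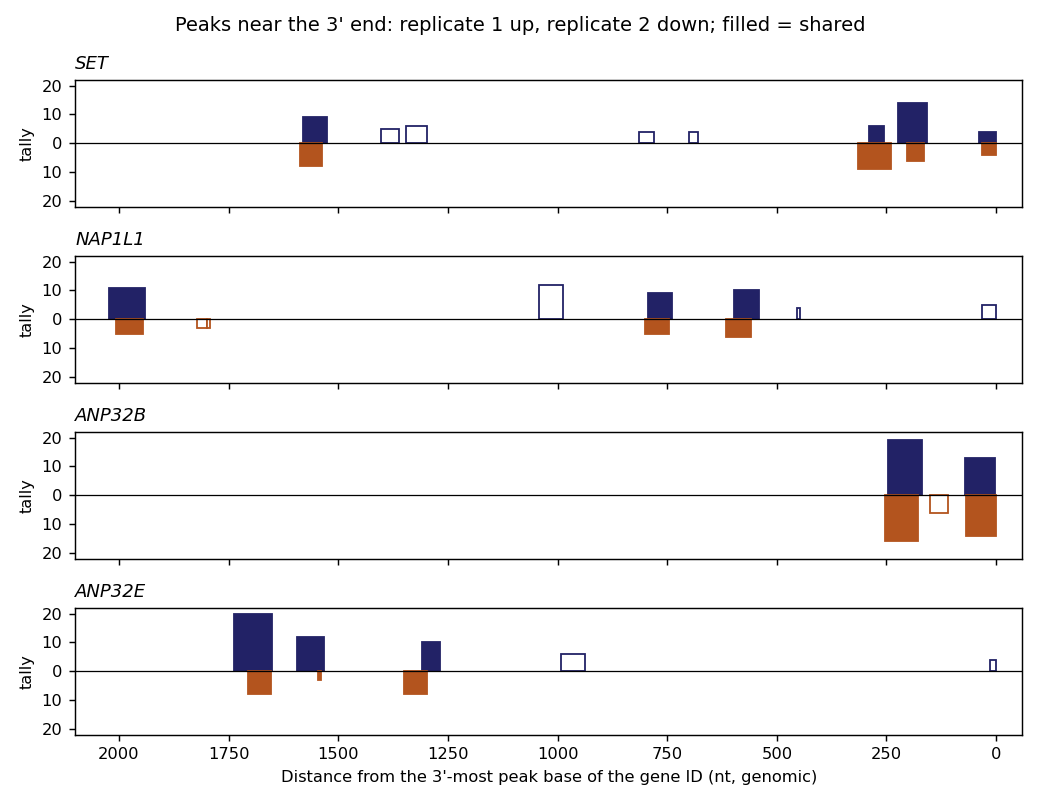
Peaks whose midpoints lie near the 3'-most peak base of SET, NAP1L1, ANP32B and ANP32E, drawn to scale in nt with the peak width as the bar width and the tally as the height, upward for replicate 1 and downward for replicate 2. Filled bars are shared: in ANP32B the strong pairs nearly coincide, in ANP32E the replicate 2 peaks are lower and offset, and NAP1L1 has an open replicate 1 bar with a tally of 12.

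The 3 ANP32 genes, whose proteins share leucine-rich repeats and an acidic tail, differed in where their peaks lay. ANP32B had few peaks, but they included the 2 sites of the 6 genes with a tally of 10 or more in both libraries. They lay from 100745856 to 100778006 of chromosome 9 on the plus strand, a span of 32.2 kb of which 31.9 kb held no peak in either library. The strongest was at 100777761 to 100777837 in replicate 1, with a tally of 19 (p of 1.90e-09), and at 100777753 to 100777827 in replicate 2, with a tally of 16 (p of 2.86e-08). The next was at 100777935 to 100778003 in replicate 1, with a tally of 13 (p of 2.91e-05), and at 100777938 to 100778006 in replicate 2, with a tally of 14 (p of 1.29e-06).

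These ANP32B pairs overlapped by 67 and 66 nt, with inner intervals centred 5 and 4 nt apart. Replicate 2 listed a further peak between them, at 100777857 to 100777896, with a tally of 6 and no partner. Peaks within 2 kb of the 3'-most peak base held 88.9% of the gene's tally in replicate 1 and 92.3% in replicate 2. At the 5' edge, a peak with a tally of 4 at 100745874 to 100745880 met one with a tally of 3 at 100745856 to 100745875, and these overlapped by 2 nt. ANP32B was the one gene of the 6 with a higher tally sum in replicate 2, at 39 against 36.

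ANP32E, a chaperone that removes the histone variant H2A.Z from chromatin, had the strongest single peak of the 6 genes by tally. Its peaks lay from 150191124 to 150208439 of chromosome 1 on the minus strand, a span of 17.3 kb. The peak at 150192776 to 150192861 had a tally of 20 (p of 8.13e-11) in replicate 1. Its partner at 150192777 to 150192829 had a tally of 8 (p of 1.58e-04). The adjoining peaks at 150192657 to 150192717 and 150192393 to 150192432 had tallies of 12 and 10, and their partners had 3 and 8.

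All 3 reproducible ANP32E peaks lay within 1.70 kb of the 3'-most peak base, and all 3 had the higher tally in replicate 1. Their partners were less exactly placed than those of ANP32B, with inner intervals centred 9, 25 and 35 nt apart and overlaps of 53, 8 and 12 nt. The gene's tallies came to 56 in replicate 1 and 26 in replicate 2, a ratio of 2.15, or 1.85 after each sum was divided by its list's total tally. Toward the 5' side, each library had peaks of its own: replicate 1 at 150202973 to 150203006, with a tally of 4, and replicate 2 at 150206972 to 150206998 and 150208391 to 150208439, with tallies of 3 and 4.

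ANP32A, an inhibitor of PP2A and, like SET, of histone acetylation, had peaks from 69071420 to 69113138 of chromosome 15 on the minus strand, the longest span of the 6 at 41.7 kb. Its tallies came to 56 in replicate 1 and 36 in replicate 2. The 3'-most peak, at 69071420 to 69071494, had a tally of 13 (p of 2.25e-08) in replicate 1, against 4 and 0.0103 at 69071444 to 69071474 in replicate 2. The strongest in replicate 2 began at 69076736 in both libraries, with a tally of 10 in replicate 1 and 7 in replicate 2. Close by, a pair that ended at 69076934 in both libraries had tallies of 3 and 4.

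Other shared ANP32A sites lay 8.34 to 8.41 kb from the 3'-most peak base. A peak began at 69079752 in both libraries with a tally of 4 in each, and the replicate 1 peak at 69079803 to 69079860, with a tally of 4, was met by touching peaks of replicate 2 with tallies of 3 and 3. A strong peak of replicate 1 at 69075295 to 69075393, with a tally of 11 (p of 1.86e-07), had no partner. In the 5' part of the span, no site was shared: replicate 1 had a peak with a tally of 3 at 69113110 to 69113138, and replicate 2 had 3 peaks with tallies of 3 or 4 between 69102724 and 69107669. The shared sites of ANP32A thus all lay in the 3' part, as in ANP32E, but reached 8.41 kb from its 3'-most peak base.

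PTMA had the fewest reproducible peaks and the lowest tallies of the 6 genes. Its peaks lay from 232573272 to 232578157 of chromosome 2 on the plus strand, a span of 4.89 kb. Tallies came to 22 in replicate 1 and 12 in replicate 2. The strongest, at 232577564 to 232577618, had a tally of 8 (p of 4.47e-05) in replicate 1, against 3 and 0.0363 at 232577575 to 232577611 in replicate 2. The other shared site, at 232576615 to 232576676, had tallies of 5 and 3. The peaks without a partner lay apart by library, with those of replicate 1 at 232576055 to 232576100 and 232578098 to 232578157, with tallies of 4 and 5, and those of replicate 2 near the 5' edge at 232573272 to 232573307 and 232573661 to 232573701, with tallies of 3 each.

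Processed copies of these genes elsewhere in the genome bear on such counts, because reads that fit several places can be dropped or divided. The RefSeq gene table lists 15 pseudogenes named after PTMA, 19 after SET, 3 after NAP1L1, 3 after ANP32B and 1 after ANP32A, and none was found by this naming for ANP32E. How reads with several matches were treated is not stated here, so the low tallies of PTMA and those of SET are uncertain in this respect, and the part of the copies was not tested.

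The stretch near the 3' end held a larger part of the tally than of the peaks in both libraries. Within 2 kb of the 3'-most peak base lay 26 of 55 peaks of replicate 1 (47.3%) and 18 of 46 of replicate 2 (39.1%). Over all gene IDs that span as much as PTMA or more, 39.3% and 36.7% of peaks lay there. By tally, the same window held 61.9% of the 6 genes' total in replicate 1 and 50.2% in replicate 2, against 47.3% and 43.5% over those IDs. The genes differed in this. NAP1L1 had 43.6% and 31.0% of its tally there and ANP32A 32.1% and 11.1%, below the values over all those IDs. The other genes had 71.2% to 92.9% in replicate 1 and 50% to 92.3% in replicate 2. A window of 2 kb covers more of a short span, such as 4.89 kb in PTMA, than of 41.7 kb in ANP32A. The part of span length in these values was not tested. Of the 12 peaks with a tally of 10 or more in replicate 1, 10 lay in this window, and of the 3 in replicate 2, 2 did. The exceptions in replicate 1 were the ANP32A peaks at 69075295 and 69076736, and in replicate 2 the NAP1L1 peak at 76462692. How many of all peaks with a tally of 10 or more lie in such a window was not computed. These counts of strong peaks therefore have no background and are not a trait of these genes. The spans are set by the peaks and include introns, and whether a site lies in an exon, intron or untranslated region is not reported here.

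Shared sites of these genes were mostly placed about as closely as those over all gene IDs. The inner intervals of the 29 reproducible peaks and their partners were centred a median of 5 nt apart, against 7 nt over all 9246 reproducible peaks. In 24 of the 29 pairs they lay within 10 nt, or 82.8% (95% Wilson interval 65.5% to 92.4%), against 66.9% of all. The interval reaches below that value, and pairs of one gene are not independent. In ANP32E the centres lay further apart, with a median of 25 nt and a largest distance of 35 nt. In 8 of 29 pairs the peak began or ended at the identical base in both libraries, or 27.6% (14.7% to 45.7%), against 13.4% of all. These 8 were 3 in NAP1L1, 3 in ANP32A and 2 in SET. Peaks whose inner interval lay at the very edge of the peak numbered 6 of 55 in replicate 1 and 9 of 46 in replicate 2, against 6.86% and 10.8% of all peaks. Those peaks were narrow, with a median width of 8 and 10 nt against 43 and 37 nt for the other peaks of the 6 genes. In replicate 1 they were 5 in NAP1L1 and 1 in ANP32A, and in replicate 2 they were 5 in NAP1L1, 3 in ANP32A and 1 in SET. Among them was the peak with the lower coordinates in each touching pair.

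Tallies of shared sites were mostly higher in replicate 1. Of the 29 pairs, 19 had the higher tally in replicate 1 (65.5%), 5 in replicate 2 (17.2%) and 5 had equal tallies. Over all reproducible peaks, 55.3% were higher and 29.9% lower in replicate 1. The median ratio of replicate 1 to replicate 2 was 1.33 in these genes and 1.17 over all. The summed tally of the 6 genes was 360 in replicate 1 and 227 in replicate 2, or 23.1 and 17.0 per 10000 of each list's total. The total tally of the lists was 155598 and 133644, which reflects the peaks that were listed and is not a measure of depth. With 1 library per replicate, no spread exists against which to test these differences.

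**Figure D5:**
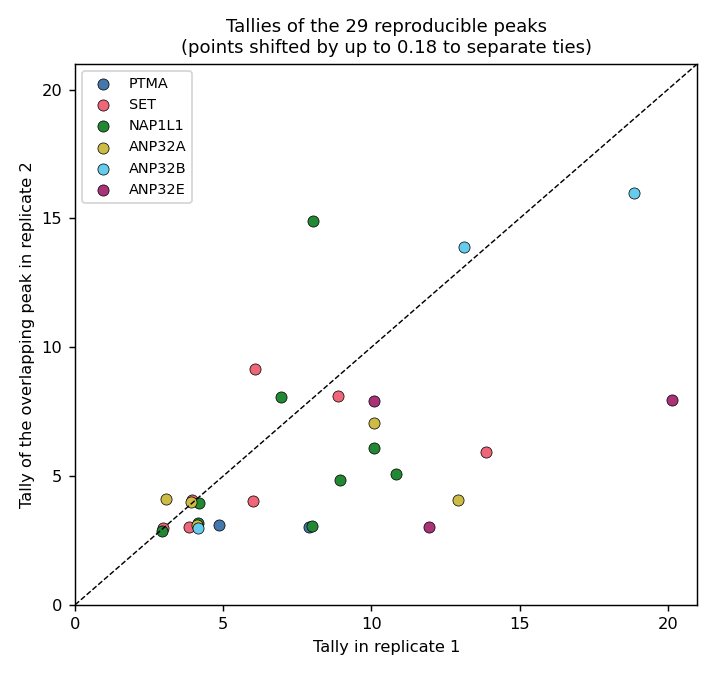
Tally of each of the 29 reproducible peaks in replicate 1 (horizontal) against that of its overlapping peak in replicate 2 (vertical), coloured by gene and shifted slightly to separate ties; the dashed line marks equal tallies. Of the points, 19 lie below the line, among them all 3 of ANP32E, and the strong ANP32B pairs at 19 and 16 and at 13 and 14 lie close to it.

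Some peaks without a partner fell where the other list leaves out a running number. Peaks of a gene are numbered in order of position within each list, and numbers are skipped in 22.9% of the gene IDs of replicate 1 and 23.6% of those of replicate 2. What the skipped numbers stood for is not stated in the labels or lists. In replicate 2, 7 numbers were skipped under NAP1L1, ANP32A and ANP32E. Replicate 1 skipped only 2, with 1 under PTMA and 1 under ANP32A. Of the 26 replicate 1 peaks without a partner, 13 lay where replicate 2 skips a number, either between its listed peaks or before the first of them by coordinate, against 16.2% of all such peaks. These were 8 in NAP1L1, of which 7 fell in one stretch with 1 skipped number, 3 in ANP32E and 2 in ANP32A, among them the ANP32A peak with a tally of 11. The NAP1L1 peak with a tally of 12 was not among them. Of the 15 replicate 2 peaks without a partner, 0 lay where replicate 1 skips a number, against 13.6% of all such peaks. Under SET, NAP1L1, ANP32B and ANP32E replicate 1 skips no number, so for most of the 15 peaks the count could only be 0.

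Genes with the most similar peak numbers and tally sums were sought for the 5 genes with 3 or more reproducible peaks. Likeness was the Euclidean distance over 4 values, log2(1 + peaks) and log2(1 + tally sum) in each of the 2 replicates, so it rests on 2 samples. The closest to NAP1L1 was ENSG00000160551.5, between 27778515 and 27878883 of chromosome 17, with 22 and 14 peaks, tally sums of 120 and 65, and a distance of 0.21. The closest to ANP32B was ENSG00000255302.3, between 49170652 and 49171704 of chromosome 15, with 3 and 4 peaks, tally sums of 36 and 38, and a distance of 0.04. Sharing, which the distance does not use, varied among such IDs. Among the 3 closest IDs to NAP1L1, which had 9 of 20 replicate 1 peaks shared, the counts were 6 of 22, 11 of 22 and 9 of 21. Among those closest to ANP32B, with 3 of 3, they were 3 of 3, 1 of 3 and 2 of 3. For SET, with 7 of 13, they were 3 of 14, 5 of 12 and 9 of 12. For ANP32A, with 5 of 9, they were 4 of 10, 4 of 10 and 3 of 9. For ANP32E, with 3 of 6, they were 3 of 7, 2 of 6 and 4 of 6. The files do not pair these IDs with names.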

How the data were processed

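CLIP-seq peak lists of 2 MSI2 libraries of NB4 cells, 1 list per library, were used as deposited. The build was hg19, and STAR 2.3.0e, Bowtie 1.0.0 and cutadapt are the tools listed in the submitters' processing notes. The deposited lists' names record removal of duplicates and trimming of adapters and poly(A). No peak caller is named in the sources used here. The p-value is as the authors deposited it, under 0.05 throughout, with no word on correction. It was used to describe and filter peaks. Depth per library is not known from the lists.

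Positions are 1-based. Overlaps, counts and 95% Wilson intervals were computed with SciPy 1.17.1, pandas 2.3.3, NumPy 2.4.6 and matplotlib 3.10.9 under Python 3.11.15. The overlap step was run on simulated lists with planted partners shifted by at most 1 nt. The narrowest peaks were left out there and every planted pair had to overlap. That run therefore says nothing about narrow peaks or weak overlaps. With 1 group of 2 libraries, no test between conditions was made. The text gives positions of peaks with a tally of 10 or more and the strongest of each gene, with others added after their values were seen. The members and lists were chosen with earlier results of these data known. Lists of other histone chaperones, PP2A subunits and blood cell markers were fixed by symbol and not used, because the tables pair no Ensembl IDs with symbols; the cell type was therefore not checked. Sequences of the sites are not shown, as no hg19 sequence was used here.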

Additional observations from a re-analysis of the deposited data

How the results depend on the processing

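Of 27 recomputed values, 16 lay inside the main value's 95% Wilson interval or within 1.5 times the main count, and 11 did not. Most of the 11 are counts that had to fall once peaks or a replicate were left out, so they say little about robustness. Requiring a reciprocal overlap of 50% lowered the shared part of the replicate 2 peaks from 67.4% to 47.8% (27.5% of all peaks), and a tally of 5 or more in both lists raised it to 92.9% (13 of 14; 56.2% of all peaks). In replicate 1 that tally minimum gave 44.8%, against 43.7% of all peaks, and the stronger 50% by p gave 47.1%, against 44.5% of all peaks. Fewer peaks remained by construction: 34 and 22 in the stronger 50%, and 29 and 14 with a tally of 5 or more. Weighting by tally raised the part of the reproducible peaks in the 3'-most 10% of the span from 41.4% to 60%. No such part was computed over all gene IDs, and the spans are set by the genes' own peaks. These values therefore do not show a lean to the 3' end. Leaving out 1 replicate gave 46 to 55 peaks and a tally of 227 to 360, against sums of 101 and 587 over both, again lower by construction. Lists that need symbols were not run. No paired analysis was possible because there is 1 group. Most peaks rest on tallies of 3 to 9, and depth is not known.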
